A study of Homo sapiens with 2 samples.

Results

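Promoters that overlap a CpG island, carry at least 2 counted gene starts and were covered by a low interval made up 349 of the 4169 intervals recovered by an antibody to sGCβ1, a subunit of soluble guanylate cyclase. They were chosen by 3 values of the authors' interval list: at least 1 CpG island, a promoter count of 2 or more, and a peak value under 30. The peak value, called height here, is the authors' maximum fragment density within an interval. Chromatin came from the human glioma cell line U-87 MG overexpressing sGCβ1; no source used here names the vector or promoter behind the overexpression. The study has 2 libraries, 1 ChIP library of these cells and 1 input library of the same cells made without antibody, and only the interval list of the ChIP library is used. With 1 library there is no replicate error and no test of a condition, so shares below carry exact Clopper-Pearson 95% intervals that cover counting error only. No source used here gives the read total behind the heights.

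A promoter is shared in the strict sense when a pair of genes start close together on opposite strands and are read away from each other, an arrangement called head to head or bidirectional. Such promoters are common in human CpG islands, usually lack a TATA box, and often serve housekeeping genes for DNA repair, mitochondria, translation and chromatin. GC boxes, bound by SP and KLF factors, and CCAAT boxes, bound by NF-Y, are typical elements of them. The enzyme itself answers nitric oxide by making cyclic GMP, and its beta-1 subunit binds haem.

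The sequences that carry the account below are the stretches between the starts of 7 such pairs, given on the plus strand from 5′ to 3′ in GRCh37, the build of the intervals (hg19). Capitals mark the CCAAT box (CCAAT), the TATA box (TATAAA), the E-box (CACGTG), the CREB and ATF core (TGACGT) and the E2F core (TTTCCCGC or TTTGGCGC), each on either strand. The left gene of each pair is read leftwards from the first base and the right gene rightwards from the last. The histone pairs are shown for their TATA and CCAAT boxes, DOLK/NUP188 and HNRNPDL/ENOPH1 for the E-box, ORC1/PRPF38A and POLR3GL/ANKRD34A as CCAAT pairs without a TATA box, and KIAA0825/SLF1 as a pair among those with the closest starts.
H2BC21/H2AC20, chr1:149858233-149858467: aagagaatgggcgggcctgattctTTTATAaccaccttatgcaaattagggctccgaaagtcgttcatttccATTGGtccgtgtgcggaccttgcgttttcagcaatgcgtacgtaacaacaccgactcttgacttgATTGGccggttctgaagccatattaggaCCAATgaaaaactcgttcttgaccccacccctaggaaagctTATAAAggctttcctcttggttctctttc
H2BC11/H2AC11, chr6:27100575-27100821: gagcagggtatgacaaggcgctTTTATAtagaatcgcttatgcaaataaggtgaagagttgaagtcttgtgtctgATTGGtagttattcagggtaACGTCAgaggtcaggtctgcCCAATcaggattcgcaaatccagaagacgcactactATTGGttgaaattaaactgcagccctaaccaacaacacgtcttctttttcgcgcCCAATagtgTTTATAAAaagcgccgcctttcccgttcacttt
ORC1/PRPF38A, chr1:52870096-52870273: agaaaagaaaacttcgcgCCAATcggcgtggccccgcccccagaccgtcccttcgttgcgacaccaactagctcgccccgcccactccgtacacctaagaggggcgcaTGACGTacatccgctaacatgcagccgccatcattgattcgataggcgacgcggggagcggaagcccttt
POLR3GL/ANKRD34A, chr1:145470401-145470514: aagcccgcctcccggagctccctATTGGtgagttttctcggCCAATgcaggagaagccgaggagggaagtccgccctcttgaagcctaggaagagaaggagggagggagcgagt
HNRNPDL/ENOPH1, chr4:83351616-83351742: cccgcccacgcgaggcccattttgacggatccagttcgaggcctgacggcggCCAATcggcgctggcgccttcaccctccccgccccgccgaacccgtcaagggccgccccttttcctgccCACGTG
DOLK/NUP188, chr9:131709883-131709977: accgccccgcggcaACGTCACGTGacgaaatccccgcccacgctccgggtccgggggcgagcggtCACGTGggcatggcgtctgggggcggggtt
KIAA0825/SLF1, chr5:93954310-93954373: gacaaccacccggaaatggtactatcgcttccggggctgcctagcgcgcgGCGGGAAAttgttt

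For longer pairs, 30 bases around an E-box (capitals) between the starts are shown, again on the plus strand of GRCh37. They belong to pairs described below for their height or as known bidirectional promoters. They were taken for lying between the starts, not for closeness to the summit. Of those printed here, only the E-box at DDX54/RITA1 lies in the 200 bp at the summit used below. At PPAT/PAICS, and at HNRNPDL/ENOPH1 above, the E-box in those 200 bp is a different one from the one printed.
HSPD1/HSPE1, chr2:198365069-198365098: gggtgattttttCACGTGtcgccagggccg
TMEM258/FEN1, chr11:61560341-61560370: tggcgagcaggtCACGTGacgggagcgcgg
DDX54/RITA1, chr12:113623327-113623356: aggtgcggtgacCACGTGacctccgctgag
PPAT/PAICS, chr4:57301946-57301975: ctgtatttgctgCACGTGgaaatctccgtt

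Heights of the 349 intervals ran from 9 to 29 with a median of 15, and lengths from 680 to 5241 bp with a median of 1357 bp. The MACS score, the p-value as minus 10 times its log10, had a median of 102 and a highest value of 378. Because height chose the intervals, these values are a description. Just inside the limit lay 1 interval of height 29, at UVRAG, 4 of height 28 and 5 of height 27. Just outside lay 1 of height 30, at DNAJC8, none of 31 and 2 of height 32, at SEP15 and CDC25C. The number of promoters counted by the authors was 2 at 308 intervals, 3 at 34, 4 at 2, 5 at 4 and 7 at 1. Set beside them below are 705 low CpG island intervals with a single counted promoter, whose median height was also 15, and 90 tall CpG island intervals with 2 or more promoters, whose median height was 58.5. Median GC content in 200 bp at the summit was 63.5% in the low shared-promoter intervals, against 64.0% in the low single-promoter and 63.3% in the tall shared-promoter intervals, so GC content was nearly alike in the 3 sets. The median observed to expected CpG ratio in these windows was 0.81, 0.80 and 0.92 in the same order, so it was higher in the tall set.

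A promoter counted by the authors was not always a start at the summit. Over the whole list, their count equalled the number of assigned gene starts with the summit from 7500 bp upstream to 2500 bp downstream in 2945 of 3033 intervals with genes (97.1%). Starts were therefore taken from the GENCODE annotation, as the start of the Ensembl canonical transcript of each protein-coding gene, and looked for within 1000 bp of the summit. Of the 349 intervals, 144 (41.3%, interval 36.0 to 46.6) had at least 2 coding starts there, 168 (48.1%) had 1 and 37 (10.6%) had 0.

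Pairs of close coding starts were mostly head to head. Of the 144 intervals with such a pair, 128 (88.9%, interval 82.6 to 93.5) had it head to head, 12 (8.33%) on the same strand and 4 (2.78%) on opposite strands with overlapping starts, so that the genes run into each other. Among the tall shared-promoter intervals 31 of 36 pairs were head to head (86.1%, interval 70.5 to 95.3), which overlaps the share in the low ones. Of all neighbouring coding starts within 1000 bp in the annotation, 908 of 1477 were head to head (61.5%, interval 58.9 to 64.0) and 510 on the same strand. The promoter count of 2 or more that chose the set bears on this comparison: low intervals with a single counted promoter had 4 of 23 pairs head to head (17.4%, interval 4.95 to 38.8). The shares are therefore a description of the set, and nothing is read from their difference. Where same-strand starts within 100 bp were counted as 1, the shares were 131 of 136 (96.3%, interval 91.6 to 98.8) at the low shared-promoter intervals and 906 of 1076 (84.2%, interval 81.9 to 86.3) in the annotation.

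**Figure D1:**
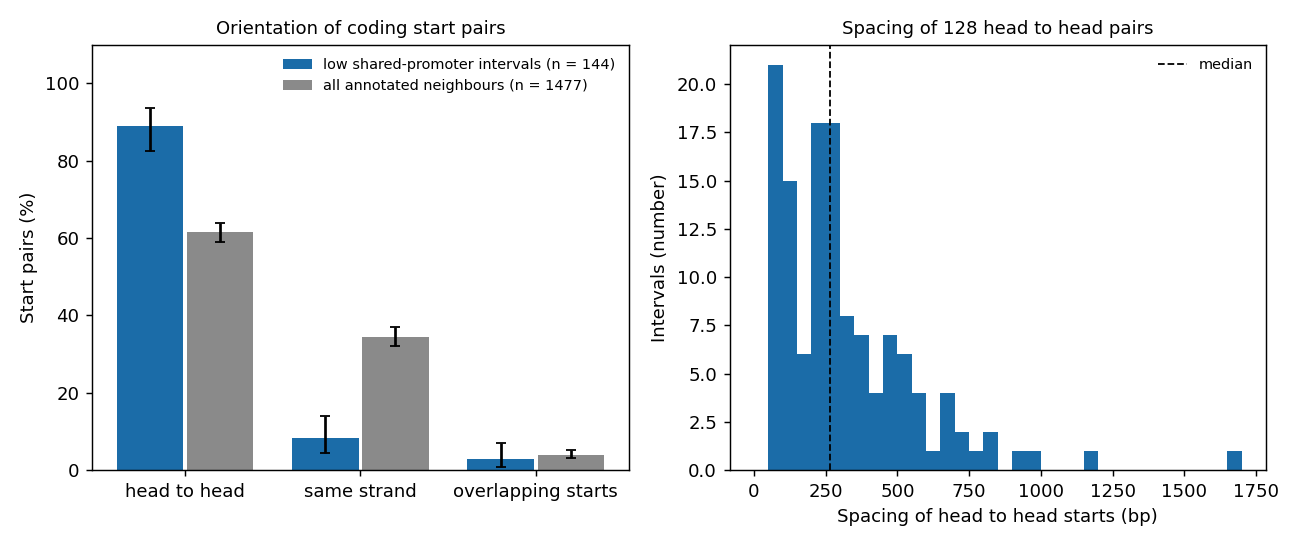
Left, share of coding start pairs in each orientation (%, bars) with exact 95% intervals, for the 144 low shared-promoter intervals with 2 coding starts and for 1477 annotated neighbouring starts. Right, number of intervals per 50 bp of spacing for the 128 head to head pairs, with the median of 265 bp dashed; 78 pairs lie under 300 bp.

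Starts of the 128 head to head pairs lay close together. Their spacing ran from 51 to 1671 bp, with a median of 265 bp and quartiles of 132 and 413 bp. It was under 100 bp in 21 pairs, from 100 to under 300 bp in 57, from 300 to under 500 bp in 26, from 500 to under 1000 bp in 22, and longer in 2. Annotated head to head pairs, which were taken only up to 1000 bp, had a median of 233 bp. Both starts lay inside the interval in 115 of the 128 (89.8%).

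The closest starts belonged to CINP/TECPR2 at 51 bp, ERI2/REXO5 at 55 bp, TRIAP1/GATC at 60 bp, KIAA0825/SLF1 at 65 bp and CAGE1/RIOK1 at 66 bp, a spacing shared by EXOC5/AP5M1, which has a lower score. CINP is a cofactor of DNA damage checkpoint signalling and TECPR2 an autophagy factor. ERI2 and REXO5 are both exonucleases, TRIAP1 is a small mitochondrial protein and GATC a subunit of the mitochondrial glutaminyl-tRNA amidotransferase. Heights at these 5 pairs were 15, 15, 11, 12 and 11. The summit lay between the starts at ERI2/REXO5 and KIAA0825/SLF1 and inside a gene at the rest.

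The widest spacing was at the histone pair H2BC3/H3C3, with 1671 bp and a height of 10. HNRNPA2B1/CBX3, an RNA-binding protein next to the heterochromatin protein HP1 gamma, had 999 bp and a height of 18. PCID2/CUL4A, which includes a cullin of ubiquitin ligases, had 944 bp and a height of 14, and PDCD10/SERPINI1 had 829 bp and a height of 13. The summit lay between the starts at H2BC3/H3C3, HNRNPA2B1/CBX3 and PCID2/CUL4A and inside a gene at PDCD10/SERPINI1.

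At head to head pairs the summit was more often inside a gene than between the starts. It lay between them in 54 of 128 (42.2%, interval 33.5 to 51.2), inside the left gene in 31 and inside the right gene in 43. The median distance from the summit to the midpoint was 165 bp and to the nearer start 123 bp. Deposited summits are coarse, since 92.5% of all summits in the list fall on multiples of 16 bp. Allowing a margin of 50 bp beyond each start brought the share to 53.1%. Summits fell between the starts in 14.3% of pairs under 100 bp apart, 35.1% from 100 to under 300 bp, 57.7% from 300 to under 500 bp and 63.6% from 500 to under 1000 bp.

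In the tall shared-promoter intervals the summit was between the starts in a larger share of pairs, at nearly the same median spacing, but the intervals of the shares overlap once pairs are split by spacing. Their summit lay between the starts in 22 of 31 head to head pairs (71.0%, interval 52.0 to 85.8), with a median spacing of 267 bp and a median distance of 68 bp from summit to midpoint. Among pairs under 300 bp apart the shares were 23 of 78 (29.5%, interval 19.7 to 40.9) in the low intervals and 13 of 21 (61.9%, interval 38.4 to 81.9) in the tall ones. At 300 bp or more they were 31 of 50 (62.0%, interval 47.2 to 75.3) in the low and 9 of 10 (interval 55.5% to 99.7%) in the tall intervals. Both pairs of intervals overlap, with the larger share in the tall set each time. Overlap of separate intervals is not a test of a difference, and none was run. Intervals at genes with 1 coding start showed a like split. The summit lay upstream of the start in 94 of 168 low shared-promoter intervals (56.0%, interval 48.1 to 63.6) and 326 of 582 low single-promoter intervals (56.0%, interval 51.9 to 60.1), against 44 of 49 tall shared-promoter intervals (89.8%, interval 77.8 to 96.6).

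**Figure D2:**
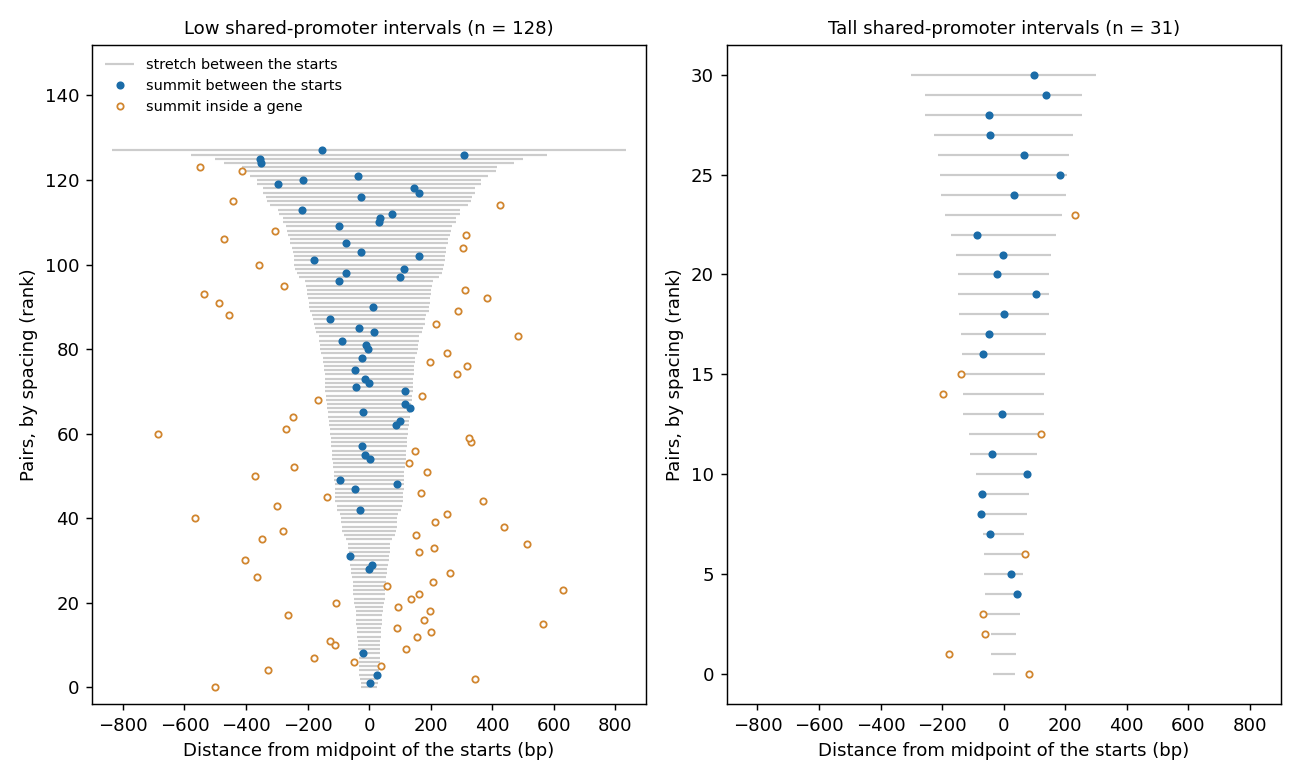
Each row is a head to head pair, ordered by spacing, with distance from the midpoint of its starts on the x axis (bp); grey lines span the stretch between the starts and points mark summits, filled where between the starts and open where inside a gene. Summits of the 128 low intervals scatter to 685.5 bp from the midpoint, with 54 between the starts, and those of the 31 tall intervals lie closer in, with 22 between the starts.

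Position also varied with height inside the low set. The summit lay between the starts in 7 of 25 pairs at heights 9 to 12 (28%), 15 of 45 at 13 to 15 (33.3%), 10 of 28 at 16 to 19 (35.7%) and 22 of 30 at 20 to 29 (73.3%, interval 54.1 to 87.7). Below a height of 20 it was 32 of 98 (32.7%, interval 23.5 to 42.9). Spacing moved with height as well, with a median of 321 bp in the 30 higher pairs and 245 bp in the 98 lower ones. Within pairs under 300 bp apart the shares were 8 of 13 (61.5%, interval 31.6 to 86.1) at heights of 20 or more and 15 of 65 (23.1%, interval 13.5 to 35.2) below, and these intervals overlap. Among the tall intervals the share was 14 of 17 (82.4%) at heights 30 to 59 and 8 of 14 (57.1%, interval 28.9 to 82.3) at 60 or more, so it was not higher throughout with height. These shares rest on where a gene is taken to start: with the outermost boundary of each gene, 14.6% (interval 8.01 to 23.7) of low and 43.5% (interval 23.2 to 65.5) of tall head to head intervals had the summit between the starts, with overlapping intervals, as with the nearest transcript start (39.6%, interval 31.4 to 48.2, and 63.9%, interval 46.2 to 79.2), and with the distances deposited by the authors the share of low ones was 24.5%.

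**Figure D3:**
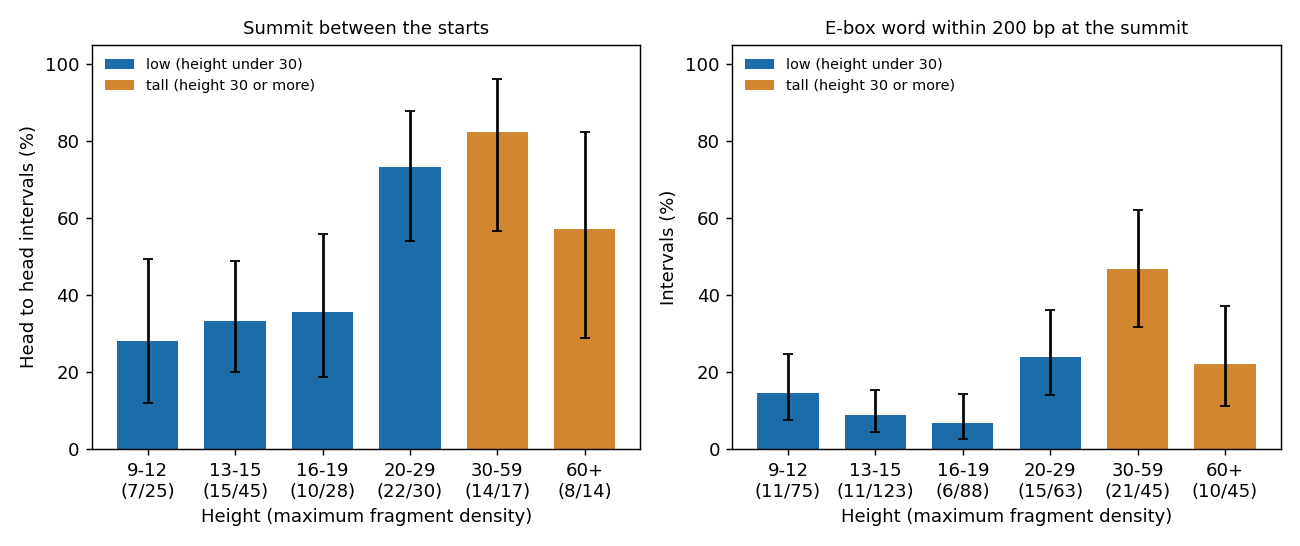
Bars give shares (%) by height class with exact 95% intervals and counts under each class, blue for low and orange for tall shared-promoter intervals. Left, head to head intervals with the summit between the starts, from 28% at heights 9 to 12 to 82.4% at 30 to 59, then 57.1% at 60 or more; right, all intervals with CACGTG in 200 bp at the summit, from 6.82% at 16 to 19 to 46.7% at 30 to 59, then 22.2% at 60 or more.

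The tallest head to head pairs in the set reached heights of 26 to 28. TOP3A/SMCR8, a DNA topoisomerase gene next to a partner of C9orf72 in autophagy, had a height of 28 with 299 bp between the starts, and its summit lay 49 bp inside SMCR8. HSPD1/HSPE1 encode the mitochondrial chaperonin Hsp60 and its cochaperonin Hsp10; the height was 28, the spacing 539 bp, and the summit lay 172 bp from the HSPD1 start on the HSPE1 side. YY1AP1/DAP3, a YY1-binding protein next to a protein of the small mitochondrial ribosomal subunit, had a height of 28 and 317 bp, with the summit 155 and 162 bp from the starts. POLR1A/PTCD3, the largest subunit of RNA polymerase I next to a mitochondrial ribosome-associated protein, had a height of 27 and 349 bp. UBE2B, a ubiquitin-conjugating enzyme of DNA repair, was paired with a coding gene model that has only an identifier (ENSG00000273345) where the authors assigned CDKL3, with a height of 27 and 533 bp. DDX54/RITA1, an RNA helicase next to a regulator of Notch signalling, had a height of 26 and 243 bp. The summit was between the starts at 4 of these 6 pairs. It was inside SMCR8 at TOP3A/SMCR8, and 39 bp inside ENSG00000273345 at the pair with UBE2B.

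Several bidirectional promoters known from textbooks were in the set. Of 29 such pairs listed for this work, 6 had a low shared-promoter interval, 4 a tall one and 18 none, and 1 (RPPH1/PARP2) was not matched. An interval counts here if its summit is within 1000 bp of the midpoint of the pair. By the same distance, 132 of 908 annotated head to head pairs had a low shared-promoter interval (14.5%, interval 12.3 to 17). An interval of any height was at 177 of the 908 (19.5%, interval 17.0 to 22.2). Besides HSPD1/HSPE1, the low ones included TMEM258/FEN1 with a height of 23 and 312 bp between the starts, UFD1/CDC45 with 22 and 727 bp, PDCD10/SERPINI1 with 13 and 829 bp, and PPAT/PAICS with 12 and 645 bp. FEN1 is the flap endonuclease of replication and repair, CDC45 a part of the replicative helicase, and PPAT and PAICS act in the same pathway of purine synthesis. The tall ones were DRAM2/CEPT1 with a height of 243, ITFG1/PHKB with 213, OSGEP/APEX1 with 49 and PREPL/CAMKMT with 46. Pairs without an interval included BRCA1/NBR2, NPAT/ATM and COL4A1/COL4A2. The list was drawn up with earlier results of these data known, so its count is a description.

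Same-strand pairs nearly all had starts close to each other. Of the 12, 11 had starts at most 77 bp apart, such as ARPC4 with its readthrough model ARPC4-TTLL3 (height 25, starts 32 bp apart) and NME1 with NME1-NME2 (height 14, 77 bp). At ARPC4, which encodes a subunit of the actin-nucleating Arp2/3 complex, a further coding start, that of TADA3 of histone acetyltransferase complexes, was within 1000 bp. BLOC1S1, of lysosome-related organelles, had a height of 22 and starts 10 bp apart, and MAPKAPK5, a stress-activated kinase, a height of 18 and 9 bp. The remaining one was RRS1, a ribosome assembly factor, at 1171 bp. Overlapping starts on opposite strands were at GANC/TMEM87A (height 16, 232 bp), PRR19/PAFAH1B3 (16, 492 bp), ATF5/NUP62 (14, 299 bp) and EME2/MRPS34 (11, 324 bp), and the summit lay between the starts at the 3 tallest of them.

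Intervals with fewer than 2 coding starts by the canonical annotation differed in where the deposited list put the second start. Among the 168 with 1 coding start, the second nearest deposited start was within 1000 bp of the summit in 71, from 1000 to 2500 bp in 45, from 2500 to 7500 bp in 46 and beyond in 6. When starts of every gene type were used, 79 of the 168 had a second start within 1000 bp, and 58 of those were head to head, 54 of them with a long noncoding RNA. UVRAG, an autophagy gene on chromosome 11 from 75525228 to 75526498, was the tallest at 29 and was assigned together with a gene known only by a LOC number. Its MACS score of 77.6 was below the lower quartile of 83.9 over the set.

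Small RNA genes accounted for the highest promoter counts. The 7 promoters at NOP56, a core protein of small nucleolar ribonucleoproteins, were its own start, MIR1292 and small nucleolar RNA (snoRNA) genes in its introns, and the height was 13. ZNFX1 (height 19) and EIF4A2, a translation initiation helicase (height 16), each counted 5, again with snoRNA genes. In all, 26 of the 349 intervals counted a snoRNA start (7.45%, interval 4.92 to 10.7), against 1 of 705 low single-promoter intervals (0.142%, interval 0.00359 to 0.788). The promoter count chose the sets, so nothing is read from this difference. Of the 26, 4 were head to head by coding starts.

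Shares of gene lists below are of those listed genes that had a deposited start within 1000 bp of any summit. Of the 13 lists, canonical histones and cytosolic ribosomal proteins had the largest such shares at these intervals. Only 17 of 71 histone and 24 of 87 ribosomal protein genes of the RefSeq annotation had such a start. Membership needs a promoter count of 2 or more, which clustered genes and hosts of small RNA genes meet through their neighbours, so nothing is read from how these lists divide between the shared-promoter and single-promoter sets. The share of all genes with a deposited start within 1000 bp of any summit that were at low shared-promoter intervals was 552 of 1588 (34.8%). For cytosolic ribosomal proteins it was 18 of 24 (75.0%, interval 53.3 to 90.2), compared with 3 at low single-promoter and 1 at tall shared-promoter intervals. Their heights ran from 11 to 19 with a median of 14, close to the median of 15 over the set. The tallest were RPS13 and RPS15, both at 19, and RPS3A at 18. In 10 of the 18 a snoRNA start entered the promoter count, up to 4 at RPL13A, and 4 were head to head pairs: RPL27A, RPS28, RPL36AL and RPL12.

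Histone genes numbered 14 in 9 intervals, of 17 with an interval anywhere in the list (82.4%, interval 56.6 to 96.2). Heights ran from 9 to 24 with a median of 13, the tallest being at HIST1H2BI, followed by HIST1H2BG and HIST1H2AE, which shared an interval of height 15. Of the 4 head to head histone pairs, 3 joined an H2B gene to an H2A gene at nearly the same distance: H2BC21/H2AC20 with 236 bp (height 13), H2BC4/H2AC6 with 246 bp (height 13) and H2BC11/H2AC11 with 248 bp (height 12). Their stretches held 3, 3 and 4 CCAAT boxes and 2, 1 and 2 separate TATA boxes, with overlapping matches on both strands counted as 1 site, and their GC content was 46.4%, 40.8% and 43.7%, below the median of 63.5% over the set, which was measured around summits. The genes of a histone cluster share sequence and only uniquely mapped reads were kept, so reads could be lost there.

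Genes of splicing gave 8 of 14 (57.1%, interval 28.9 to 82.3), among them SNRPA at 21 and HNRNPA2B1 and SNRPB at 18, against 5 at low single-promoter and 0 at tall shared-promoter intervals. Solute carriers gave 7 of 22, led by SLC37A3 at 21, SLC16A1 at 20 and SLC38A6 at 17. Mitochondrial ribosomal proteins gave 5 of 13, among them MRPL46 and MRPS11, which are head to head with 320 bp between them under an interval of height 14. DNA repair genes gave 3 of 8, among them FEN1 and PMS2 (height 13, head to head with AIMP2 at 223 bp). Zinc finger ZNF genes gave 5 of 24, with ZNF524 tallest at 22 and ZNF143 at 14, and proteasome genes gave 2 of 13, PSMG3 at 19 and PSMD5 at 17. The DEAD-box helicases DDX54 at 26 and DDX5 at 22 were 2 of 7, and both were head to head. Aminoacyl-tRNA synthetases gave 2 of 4, IARS at 17 and YARS at 13, complex I 1 of 5, NDUFA7 at 15, microRNA genes 3 of 11 and snoRNA genes 7 of 10. These shares are small counts with wide intervals, and none was tested.

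Seen from the annotation, head to head pairs carried an interval of any height more often, per start region, than isolated starts. A pair brings 2 coding starts to its window and an isolated start 1, and rates per start were not compared. Starts were taken whether or not their genes are active in these cells. Of 908 annotated head to head pairs, 177 had a summit within 1000 bp of their midpoint (19.5%, interval 17.0 to 22.2), against 1014 of 17235 coding starts with no other coding start within 1000 bp (5.88%, interval 5.54 to 6.25). Where 200 bp at the midpoint or start had over 55% GC and an observed to expected CpG ratio above 0.6, here called CpG-rich, the shares were 136 of 687 pairs (19.8%, interval 16.9 to 23) and 902 of 10846 isolated starts (8.32%, interval 7.80 to 8.85). Elsewhere they were 41 of 221 pairs (18.6%, interval 13.7 to 24.3) and 112 of 6389 isolated starts (1.75%, interval 1.45 to 2.11). Height did not set the pairs apart once an interval was there: 19.8% of pairs with an interval had a tall one, against 18.8% of isolated starts with an interval, and the median height was 16 in both.

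**Figure D4:**
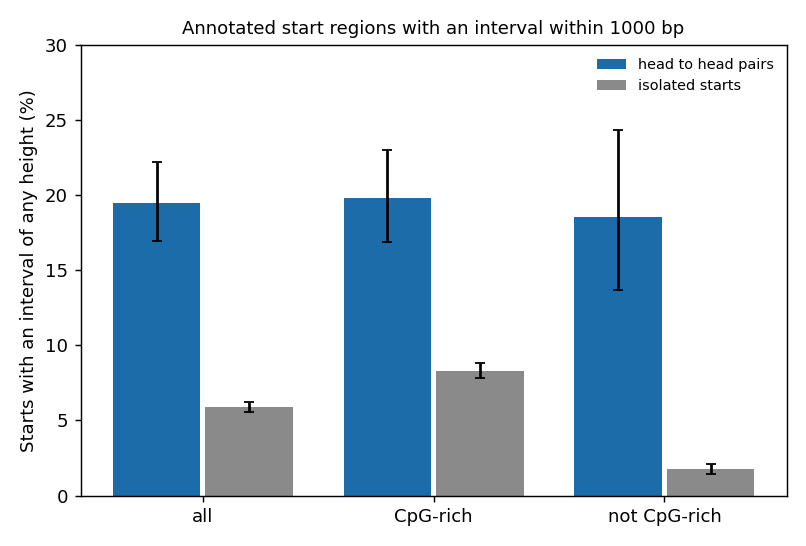
Share (%) of annotated start regions with an interval summit of any height within 1000 bp, with exact 95% intervals. Head to head pairs are blue and isolated coding starts grey. Shares are given over all start regions and split by CpG content, taken at the midpoint of a pair or at an isolated start. The pairs stand at 19.5%, 19.8% and 18.6%, and the isolated starts at 5.88%, 8.32% and 1.75%.

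Of 13 sequence elements searched on both strands, the E-box CACGTG, the core bound by USF and MYC family factors, is given first. It occurred within 200 bp at the summit in 43 of 349 low shared-promoter intervals (12.3%, interval 9.06 to 16.2), against 67 of 705 low single-promoter (9.50%, interval 7.44 to 11.9) and 31 of 90 tall shared-promoter intervals (34.4%, interval 24.7 to 45.2). The share was 6.72% over all 4169 intervals and 5.67% in 200 bp at 20098 annotated coding starts. Within the set it was 14.7% at heights 9 to 12, 8.94% at 13 to 15, 6.82% at 16 to 19 and 23.8% (interval 14.0 to 36.2) at 20 to 29. In the tall set it was 46.7% (interval 31.7 to 62.1) at 30 to 59 and 22.2% (interval 11.2 to 37.1) at 60 or more. The nearest E-box lay a median of 33.5 bp from the summit in the 43 intervals that had it, and 20 of these were head to head. By height they were led by UVRAG at 29, NAGPA, an enzyme of lysosomal targeting, at 28, and ENSG00000273345/UBE2B at 27, followed by DDX54/RITA1 at 26. Their MACS scores were 77.6, 252, 352 and 263, so the tallest of them had the lowest score. At TMEM116/ERP29, with a height of 25, the word occurred 3 times and the nearest lay 3.5 bp from the summit; ERP29 is a chaperone of the endoplasmic reticulum. At DOLK/NUP188, also 25, it occurred 2 times between starts 96 bp apart and overlapped the CREB and ATF core, as the printed stretch shows.

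Between the 2 starts of the 128 head to head pairs, the GC box GGGCGG was found in 92 (71.9%), CCAAT in 53 (41.4%), CACGTG in 24 (18.8%), TGACGT in 22 (17.2%), the ETS core CCGGAAGT in 20 (15.6%), ACTACAA in 13 (10.2%), TATAAA in 10 (7.81%) and TTTCCCGC or TTTGGCGC in 9 (7.03%). The words GCGCATGCG or CGCATGCGC of NRF1 and TCTCGCGA were found in 5 each, AAGATGGC of YY1 in 4, TGACGTCA in 3 and the AP-1 site TGAGTCA in 2. TGACGT is contained in TGACGTCA, and the stretches differ in length, so these shares are not comparable with those in fixed windows. In 200 bp at the midpoint, GGGCGG was in 57.8% of low head to head pairs and 59.3% of the 908 annotated ones, and CCAAT in 31.2% of the low and 35.0% of the annotated ones. CACGTG was in 13.3% (interval 7.93 to 20.4) at the midpoint of the low pairs, 29% (interval 14.2 to 48.0) of the tall ones and 8.59% (interval 6.85 to 10.6) of the annotated ones. At WDR77/ATP5PB, with starts 208 bp apart and a height of 17, TCTCGCGA or its reverse complement matched 5 times between the starts, at 3 separate sites, since the word and its complement overlap there. A match is a word in the reference sequence and was not measured as a bound site.

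Counts per chromosome stand beside 349 of 4169 intervals over the whole list. CpG islands per chromosome were not counted, so nothing is read from them. Chromosome 1 held 37 of them among its 415 intervals and chromosome 19 held 31 among 164, while chromosome 7 held 22 among 363 and chromosome X 1 among 25.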

How the data were processed

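Per the series' design text, 75-nt reads were aligned by the authors to hg19 with BWA at default settings and kept if they passed the purity filter, had at most 2 mismatches and mapped uniquely; intervals were called with MACS. No source used here gives versions or says whether the input library served as control. Per the file headers, the deposited peak and average values are a signal (maximum and mean fragment density), the deposited score is the p-value of MACS as minus 10 times its log10, and the authors' CpG island, promoter and gene columns are counts of assigned features, not reads. No replicate exists and the read total is unknown.

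Intervals were selected by the 3 deposited values above. Coding starts came from GENCODE 44 on GRCh37 (canonical transcript, within 1000 bp of the summit); the 2 nearest gave the pair. Of 895 deposited gene assignments, 810 (90.5%) matched the annotation by name. Sequence was read from GRCh37 in 200 bp windows with pysam 0.24.0, and exact 95% intervals came from scipy 1.17.1. Pair classification was checked on simulated starts. The members, lists and pairs were chosen with earlier results of these data known, and height classes after heights were seen. Named pairs are the 6 tallest, the 5 closest and 5 widest, every known pair, the 3 with most promoters, the 3 tallest per other orientation and up to 3 per list; some of these are not reported here, and others were named after their values were seen. Sets were compared by intervals of shares, with no test, since all come from 1 library. Alternatives covered other starts, windows, heights and scores.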

Additional observations from a re-analysis of the deposited data

How the results depend on the processing

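The 88.9% head to head share was 81.7% with starts of all gene types, 75.6% with the authors' distances, 61.4% with outermost gene boundaries and 96.3% with same-strand starts merged. The median spacing of 265 bp was 208 bp with the nearest transcript start, 148 bp with the authors' distances and 104 bp with outermost boundaries. The 42.2% with the summit between the starts was 32.7% at heights under 20, 53.1% with a margin of 50 bp, 24.5% with the authors' distances and 14.6% with outermost boundaries; the tall set's 71.0% was 43.5% with the last. The 19.5% of annotated pairs with an interval was 16.9% with outermost boundaries and 13% at scores of at least the list median, where isolated starts gave 3.30%. CACGTG was in 8.60% of the intervals in 100 bp and 20.1% in 400 bp; the tall set gave 27 and 36 of 90. Known pairs fell to 3 at heights under 20. The causes of these shifts were not tested. By construction, a longer window can only add CACGTG matches and a lower height limit can only remove known pairs. A shorter interval list can likewise only lower the share of annotated starts with an interval. The share with the summit between the starts is not bound in this way. Other motif shares moved beyond their interval in 21 of 48 alternatives, and gene list counts in 2 of 26, both for snoRNA genes (2 within 500 bp and 24 within 2500 bp, against 7). No paired analysis was possible because there is 1 ChIP library, and no replicate could be left out. How exactly summits are placed was not measured, and the read total is unknown. Alternatives on starts within 500 or 2500 bp, scores, exact promoter counts and autosomes stayed within the intervals for orientation, spacing and summit position.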
